A study of Takifugu rubripes with 9 samples.

Results

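The miR-181 family was followed through the small RNA libraries of 8 tissues of torafugu, *Takifugu rubripes*, a pufferfish with a compact genome. Its members were all deposited sequences whose miRBase name, without the copy number, is mir-181 with or without a letter, whichever way the sequence matched its entry. 4 names qualified, namely mir-181a, mir-181b, mir-181c and mir-181d, of 377 miRNA names in all. They held 118 of the 8194 distinct sequences and 13178 of the 5232809 annotated reads. The tissues were brain, eye, heart, slow muscle, intestine, liver, ovary and testis, dissected from a pair of adult fish of wild type genotype. Each tissue was 1 library, sequenced on a SOLiD 3 instrument, so no value has a replicate error. Fast muscle was not analysed here.

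A microRNA is cut from a hairpin precursor whose stem leaves a 5p and a 3p strand. The strand that is loaded into an Argonaute protein pairs with messenger RNAs through its seed, the bases 2 to 8 from its 5′ end, and lowers their output. In mice miR-181 is known for its part in the development of B and T lymphocytes, and in medaka, another fish, for its part in the growth of retinal axons. In bulk tissue, fewer cells that hold a miRNA and less of it in each cell cannot be told apart.

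The values are raw counts of reads per sequence, given below as RPM, the reads of a name scaled to 1e+06 reads of 18–25 nt in its library. The annotated reads numbered between 54540 in testis and 1207961 in intestine. They made up 11.3% of the 18–25 nt reads in ovary and 2.58% in testis, against 33.1% to 37.7% in the 6 somatic tissues, and this difference in composition moves with every RPM of the gonads. The marker miRNAs given here were highest in the tissues of their labels, though some also had many reads elsewhere. miR-124-3p had 61669 RPM in brain and 87327 RPM in eye, against at most 217 RPM elsewhere. miR-122-5p was highest in liver (48649 RPM), miR-192-5p in intestine (124701 RPM), miR-206-3p in slow muscle (34615 RPM), miR-499-5p in heart (8168 RPM) and miR-202-5p in ovary (229 RPM). miR-202-5p had 3.31 RPM in testis, and miR-133a-3p, a muscle miRNA, was highest in slow muscle at 187 RPM. Slow muscle also had 4405 RPM of miR-192-5p and 2099 RPM of miR-204a-5p, which was highest in eye. miR-204b-5p, of the same miRNA family, was instead highest in brain (2399 RPM, against 1373 RPM in eye). Eye had 3827 RPM of miR-1-3p, which was highest in slow muscle. The study also annotated many reads under later, more flexible criteria, and those are not counted here. Its own RPM were higher for miR-206-3p, miR-499-5p, miR-202-5p and miR-133a-3p in these tissues, by unequal factors. The levels, ranks and shares below are therefore those of the first criteria and not full levels.

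The 2 members with many reads shared the seed of the 5p strand, while their 3p strands carried different seeds. The sequences below are the most frequent form of each strand over all libraries, with the seed in capitals, and they show what the reads of each name are.
miR-181a-5p: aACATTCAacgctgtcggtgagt
miR-181b-5p: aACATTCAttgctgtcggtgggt
miR-181a-3p: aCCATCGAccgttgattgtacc
miR-181b-3p: cTCACTGAacgatgaatgcaa
Counted from the 5′ end of miR-181a-5p, miR-181b-5p differed from it by A9T, C10T and A21G, all outside the seed. The 5p strands of both copies of the miR-181a gene, mir-181a-1 and mir-181a-2, were the same sequence, and their reads were deposited under both copy names. Sequences with the seed ACATTCA held 8191 reads (62.2% of the family), and those with the seed CCATCGA of miR-181a-3p held 4051 reads (30.7%). The RefSeq annotation of torafugu (assembly fTakRub1.2) lists 3 genes of the family. mir181a-1 and mir181b lie on 1 chromosome with 0 annotated genes between their starts, and mir181a-2 lies on another chromosome.

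mir-181a held 12084 reads (91.7%) and mir-181b 1091 reads (8.28%). The other two names rested on almost no reads. mir-181c was 1 read in brain, on the precursor of a zebrafish entry, and mir-181d was 1 read in brain and 1 in eye, on a human entry, differing from miR-181b-5p by C12T. These counts do not exceed the 3 reads taken as the smallest detectable value, so neither name counts as detected. Neither is among the 3 torafugu genes of the family given above.

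The family was most abundant in brain and eye. It reached 2343 RPM (95% Wilson interval 2286 to 2402) in brain and 2025 RPM (1951 to 2101) in eye. The other somatic libraries had 495 RPM (457 to 536) in liver, 368 RPM (345 to 392) in heart, 354 RPM (328 to 381) in slow muscle and 228 RPM (212 to 245) in intestine. Ovary had 228 RPM (215 to 242) and testis 27.0 RPM (20.8 to 34.9). Brain and eye together held 72.0% of the RPM summed over the 8 libraries, and the brain level was 6.62 times the median of the other 7. Brain exceeded eye 1.16-fold (exact Clopper-Pearson interval 1.11 to 1.21). These intervals, and the limit of 3 reads, take in counting error and nothing else, since reads copied by amplification cannot be told from separate molecules. As a share of the annotated reads, the family took 0.671% in brain and 0.612% in eye, followed by 0.202% in ovary, 0.136% in liver, 0.105% in heart and in testis, 0.0940% in slow muscle and 0.0645% in intestine. On this scale ovary stood above every somatic tissue except brain and eye. Testis, with 57 family reads, stood above intestine, while its interval (0.0807% to 0.135%) overlapped those of slow muscle (0.0872% to 0.101%), heart and liver.

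**Figure D1:**
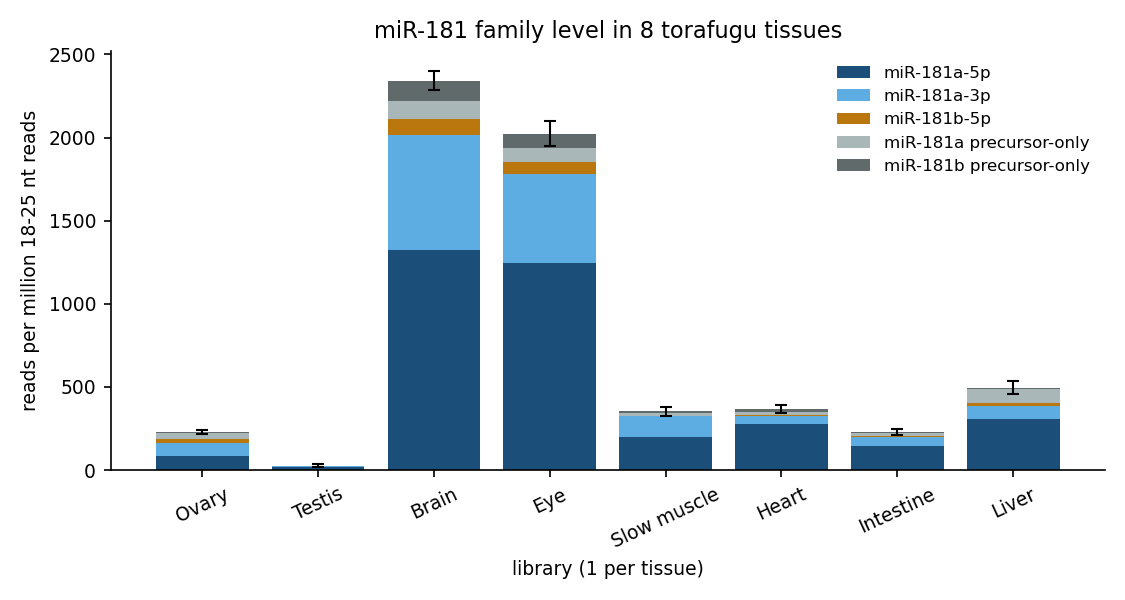
Stacked bars of the RPM of the miR-181 strands and precursor-only reads in each of the 8 libraries, with 95% Wilson intervals on the family total. Brain (2343 RPM) and eye (2025 RPM) stand above all other libraries, the next being liver at 495 RPM, and testis is lowest at 27.0 RPM.

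miR-181a-5p, the most abundant strand, had 1321 RPM in brain, 1247 RPM in eye, 306 in liver, 277 in heart, 200.02 in slow muscle, 148 in intestine, 84.7 in ovary and 16.6 in testis. In this order 5 of the 7 steps between neighbours differed by a two-sided exact binomial test of the reads, adjusted over all names (Benjamini-Hochberg). Brain against eye (ratio 1.06, interval 0.9998 to 1.12, adjusted p = 0.0869, exact test) and liver against heart (1.11, 0.971 to 1.26, adjusted p = 0.195) did not pass. These tests compare libraries and not tissues. Among the strand names with reads it ranked 40 of 293 in brain and 30 of 265 in eye, against 93 of 264 in intestine.

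miR-181a-3p, the opposite strand of the mir-181a-1 hairpin in most of its reads, had 697 RPM in brain, 533 in eye, then 125 in slow muscle, 82.2 for liver, 80.9 in ovary, 49.2 in intestine, 48.0 in heart and 9.46 in testis. Liver and ovary (adjusted p = 0.998), and intestine and heart (adjusted p = 0.986), did not differ in the exact test, while the other 5 steps did. Heart was the fourth for the 5p strand and next to last for the 3p strand. Reads that matched the precursor alone are left out of these values. Placed on the strand they overlap, they put liver (159 RPM, 138 to 184) above slow muscle (139, 124 to 157), with overlapping intervals. Ovary then had 115 RPM (105 to 125), below the interval of liver. The order counted this way was not tested.

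miR-181b-5p had 95.3 RPM in brain, 75.7 in eye, 21.8 in ovary, 16.6 in liver, 6.73 in intestine, 6.35 in heart, 3.12 in slow muscle and 0 in testis, where 3 reads would be 1.42 RPM. Eye and ovary, liver and intestine, and slow muscle and testis differed in the exact test, while brain and eye (adjusted p = 0.0895) and the remaining neighbours did not. The 2 strands of mir-181b were deposited in different classes. Only 2 reads were recorded as a mature miR-181b-3p, and 561 reads of mir-181b matched the precursor alone. Once precursor-only reads were placed on the strand they overlap by at least 14 nt, miR-181b-3p had 560 reads, miR-181b-5p had 530 and 1 read stayed unplaced. The precursor-only reads of mir-181b had 125 RPM in brain, 86.5 in eye and at most 16.7 elsewhere.

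Brain against eye asked which of these 2 libraries holds more of the family. miR-181a-3p (697 RPM in brain, 533 RPM in eye, ratio 1.31, 1.20 to 1.43, adjusted p = 1.03e-09) and the mir-181b reads that matched the precursor alone (125 RPM in brain, 86.5 RPM in eye, ratio 1.44, 1.17 to 1.79, adjusted p = 0.00109) passed the exact binomial test. Of the 8 family names 5 had at least 10 reads, and no ratio among these reached the 1.5-fold that a call required. The other names had at most 2 reads, too few for a call, so 0 of 8 were called. At an unadjusted p under 0.05 there were 4 of 8, but the share of all names at that level was not counted. Over all 517 names with reads, 31.3% were called higher in brain and 18% lower.

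Ovary against testis was the pair with the widest gaps. miR-181a-5p had 84.7 RPM in ovary and 16.6 RPM in testis (ratio 5.11, 3.62 to 7.45, adjusted p = 5.77e-30, exact binomial test). miR-181a-3p had 80.9 RPM in ovary and 9.46 RPM in testis (ratio 8.55, 5.46 to 14.2, adjusted p = 1.08e-37, exact binomial test). miR-181b-5p was at least 15.4-fold higher in ovary, from 21.8 RPM there and 0 reads in testis set at the limit of 3 reads, and the lower limit of the exact interval was 12.3. All 5 family names with reads were called higher in ovary by the exact test, beside 41.4% of the 403 names tested, and 0 were called lower, beside 6.45%. With the annotated reads as library size the ratio of miR-181a-5p was 1.17 (adjusted p = 0.705, exact test) and that of miR-181a-3p was 1.95. On that scale the limit for miR-181b-5p was 3.52, and 3 of the 5 names were called. The share of all names called on that scale was not counted. The share of annotated reads, 11.3% in ovary and 2.58% in testis, moves with the gap between the 2 libraries.

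Slow muscle against heart separated the strands of mir-181a. miR-181a-3p was higher in slow muscle, at 125 RPM there and 48.0 RPM in heart (ratio 2.60, 2.08 to 3.26, adjusted p = 5.47e-18 by the exact binomial test). miR-181a-5p had 200.02 RPM in slow muscle, against 277 RPM in heart (ratio 0.722, 0.635 to 0.818, adjusted p = 7.13e-07), which was a smaller difference than a call required. Hence 1 of 5 family names was called higher, beside 20.3% of the 478 names tested, and 0 were called lower, beside 19.7%.

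Intestine against liver gave lower levels in intestine for 4 of 5 names, beside 31% of the 471 names tested, and 0 higher, beside 17.8%. miR-181a-5p had 148 RPM in intestine and 306 RPM in liver (ratio 0.483, 0.422 to 0.554, adjusted p = 2.09e-24, exact binomial test). miR-181a-3p had 49.2 RPM in intestine and 82.2 RPM in liver (ratio 0.598, 0.464 to 0.775, adjusted p = 0.000206, exact binomial test). The precursor-only reads of mir-181a stood furthest apart, at 18.4 RPM in intestine and 83.9 RPM in liver (ratio 0.220, 0.158 to 0.304, adjusted p = 5.83e-21, exact binomial test). Only the precursor-only reads of mir-181b, with 5.56 RPM in intestine and 5.81 RPM in liver, did not pass (adjusted p = 1, exact test). With TMM factors as library size the exact test no longer called miR-181a-3p (ratio 0.789, adjusted p = 0.116) and miR-181b-5p (0.535, adjusted p = 0.0881), and per trimmed read miR-181a-3p had a ratio of 0.718, too small for a call.

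The gonads were set against the somatic tissues because the study sampled both. The family had 228 RPM in ovary and 27.0 RPM in testis, a mean of 128 ± 142 RPM (SD, n = 2), against 969 ± 950 RPM in the somatic tissues (SD, n = 6, range 228 to 2343). The difference of -841 RPM had p = 0.143 in a two-sided exact permutation test over the 28 splits, whose smallest possible p is 0.0357 (adjusted p = 0.286 over 4 measures). As a share of annotated reads the means were 0.153% in gonads and 0.281% in somatic tissues (exact permutation p = 0.893). The groups overlapped on the share of annotated reads. On the RPM scale testis lay below all somatic libraries and ovary within 1 RPM of the lowest of them.

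The part of the mir-181a reads on the 3p strand differed between libraries. Ovary reached 48.9% (45.4 to 52.3), close to equal numbers of both strands, and testis 36.4% (24.9 to 49.6) on 55 reads. Of the reads recorded for either strand, 34.5% (33.3 to 35.8) were 3p in brain, 29.9% (28.2 to 31.8) in eye, 38.4% (34.7 to 42.3) in slow muscle, 24.9% (21.8 to 28.3) in intestine, 21.2% (17.7 to 25.1) in liver and 14.8% (12.5 to 17.3) in heart. The range of 34.1 percentage points ranked 4 in width among 26 miRNAs with at least 50 strand reads in 6 or more libraries. Their median range was 1.17 points, and 7 of them exceeded 10 points. miR-2779, miR-140 and miR-30e had wider ranges. All these ranges rest on reads recorded as mature, so a strand deposited as precursor matches is left out of them. For mir-181b in brain the 3p share was 0.781% that way and 56.6% with precursor-only reads placed by overlap.

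**Figure D2:**
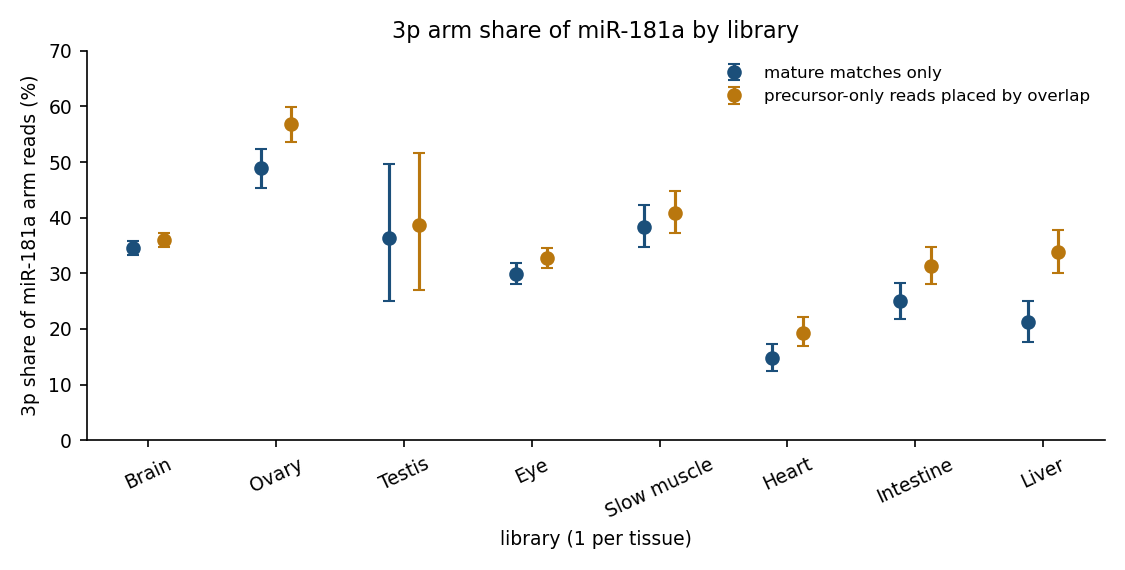
3p share of the miR-181a strand reads in each library with 95% Wilson intervals, from reads recorded as mature (blue) and with precursor-only reads placed on the strand they overlap (orange). Ovary is highest at 48.9% and heart lowest at 14.8% among reads recorded as mature, and liver moves most between the 2 ways of counting.

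**Figure D3:**
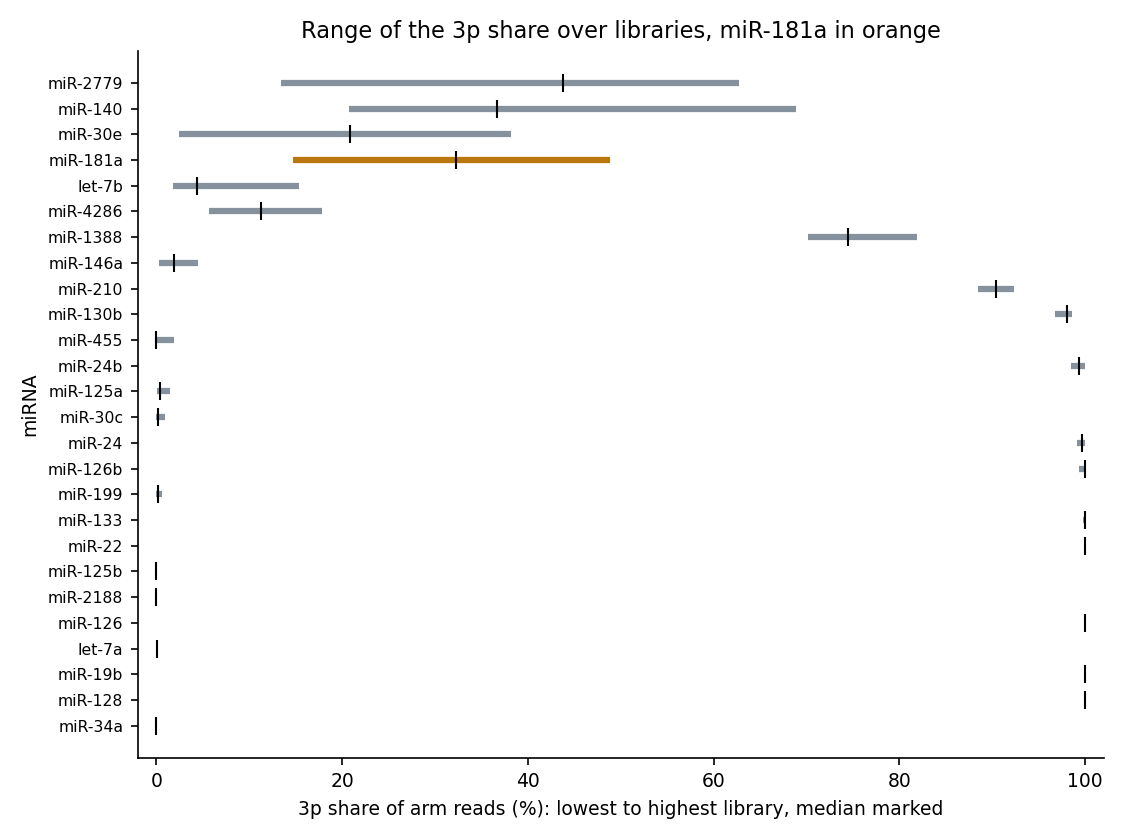
Lowest to highest 3p share over libraries for 26 miRNAs, each with the median marked. miR-181a, in orange, covers 14.8% to 48.9%, where most miRNAs keep to a single strand among the reads recorded as mature. Precursor-only reads are left out.

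Brain was compared with each of the other libraries by a two-sided Fisher's exact test, called at an adjusted p under 0.05 and a difference of at least 10 points. In this exact test the share in brain was 19.8 points above heart (adjusted p = 6.36e-32), 13.4 points above liver (adjusted p = 9.81e-09) and 14.3 points below ovary (adjusted p = 1.15e-13). Of all miRNAs tested, 10.7% were called against heart, 13.8% against liver and 17.2% against ovary. The difference from intestine, 9.62 points (adjusted p = 2.98e-06), and that from eye, 4.61 points (adjusted p = 0.000573), were by the same exact test too small for a call, beside 12.9% of miRNAs called against intestine and 3.23% against eye. Slow muscle (adjusted p = 0.243) and testis (adjusted p = 1) did not pass the exact test, beside 0% of miRNAs called against slow muscle and 17.6% against testis. With precursor-only reads placed on the strand they overlap, liver rose to 33.7%, the difference from brain fell to 2.23 points and its call was lost (adjusted p = 0.422, Fisher's exact test), while heart and ovary kept theirs. The mean 3p share was 42.6 ± 8.83% in the gonads (SD, n = 2) and 27.3 ± 8.76% in the somatic tissues (SD, n = 6), with an exact permutation p of 0.107 (adjusted p = 0.286). Leaving out each library in turn, this exact permutation p was lowest without slow muscle, the only somatic library above testis, at 0.0476. That is the smallest p possible with 1 somatic library left out. Leaving out slow muscle makes the gonads the 2 highest libraries, so this p is no separate support. Without ovary the difference was 9.08 points.

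The reads on the 3p strand of mir-181a came in several versions. They are shown with the seed in capitals, and a substitution is counted from the 5′ end of the most frequent version.
most frequent version, torafugu mir-181a-1: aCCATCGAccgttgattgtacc
T16C, named for zebrafish mir-181a-2: aCCATCGAccgttgactgtacc
A20G, named for horse mir-181a-2: aCCATCGAccgttgattgtgcc
C10T and T16G, torafugu mir-181a-2: aCCATCGActgttgagtgtacc
All 4 shared the seed. Each deposited sequence matches an entry of some species with 0 mismatches, so versions that no entry carries are not among the reads counted here. The most frequent version made up 82.8% of the 4306 reads on this strand, T16C 11.4%, A20G 3.55% and the C10T and T16G version 2.14%. The 22 nt form of T16C, with 294 reads, was deposited as a precursor match, while its 23 nt form, with 85 reads, was deposited as a mature 3p match to a lamprey entry.

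The T16C version was as frequent as the most frequent version in liver. It made up 47.4% (40.5 to 54.4) of the 192 reads on the 3p strand in liver, against 45.8% (38.9 to 52.9) for the most frequent version. In the other libraries T16C took 22.2% (18.9 to 25.8) in ovary, 20.2% (14.9 to 26.9) in heart, 18.2% (13.7 to 23.7) in intestine, 10.2% (8.31 to 12.4) in eye, 9.33% (6.40 to 13.4) in slow muscle and 4.57% (3.75 to 5.57) in brain. Testis had 1 read of 22. The interval of liver did not overlap that of any other library with at least 50 reads, and that of brain did not either. Only a single base sets T16C apart from the most frequent version, and no genome was compared, so the gene it comes from was not tested. The torafugu mir-181a-2 version had 5.49% (3.88 to 7.74) in ovary, 5.95% (3.27 to 10.6) in heart and 4.69% (2.49 to 8.67) in liver, against 1.33% (0.914 to 1.93) in brain and 0.946% (0.480 to 1.85) in eye. A20G ranged from 2.08% (0.813 to 5.23) in liver to 6.93% (4.31 to 11.0) in intestine. Among the libraries with at least 50 reads, the intervals of brain (3.20%, 2.52 to 4.05) and intestine were the only pair that did not overlap.

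**Figure D4:**
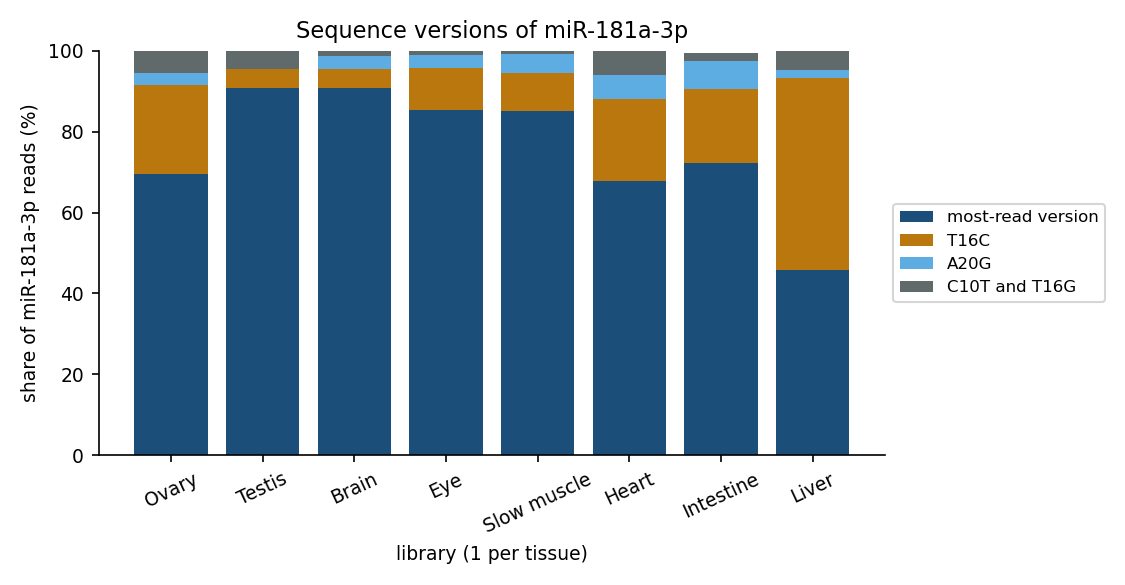
Stacked bars of the share of miR-181a-3p reads by sequence version in each library, with substitutions counted from the 5′ end of the most frequent version. T16C makes up 47.4% of the reads in liver and 22.2% in ovary, against 4.57% in brain.

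mir-181b had its largest part of the family in ovary. It made up 11.6% (9.82 to 13.6) of the family reads in ovary, 9.42% (8.72 to 10.2) in brain, 8.01% (7.06 to 9.07) in eye, 6.26% (4.87 to 8.004) in heart, 5.39% (4.01 to 7.21) in intestine, 4.53% (3.13 to 6.51) in liver and 3.67% (2.50 to 5.36) in slow muscle, with 0 of 57 reads in testis. Among 5p reads alone ovary stood further apart. miR-181b-5p was 20.5% (17.2 to 24.2) of the 507 reads of both 5p strands in ovary, against 6.73% (5.98 to 7.58) in brain, 5.72% (4.75 to 6.88) in eye, 5.14% (3.35 to 7.81) in liver, 4.35% (2.91 to 6.44) in intestine, 2.24% (1.38 to 3.60) in heart and 1.53% (0.705 to 3.31) in slow muscle. In testis it was 0 of 35 reads, which by the limit of 3 reads allows a share of up to 8.57% (upper Wilson limit 9.89%). The gonad mean of 10.3 ± 14.5% (SD, n = 2) was a mean of ovary and of 0% in testis, against 4.29 ± 2.03% in the somatic tissues (SD, n = 6, exact permutation p = 0.321, adjusted p = 0.429). Without ovary the difference was -4.29 points. In every library 0 reads of miR-181b-5p were identical to its recorded mature form, so the shares of mir-181b leave that form out.

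The strands of mir-181b, counted with the precursor-only reads placed by overlap, ran the other way in ovary than those of mir-181a. miR-181b-3p made up 17.5% (11.8 to 25.02) of 126 strand reads in ovary, against 56.6% (52.6 to 60.6) of 588 in brain, 52.9% (46.4 to 59.3) of 225 in eye and 72.4% (59.8 to 82.2) of 58 in heart. Counted the same way, miR-181a-3p made up 56.8% (53.7 to 59.9) in ovary and 36.0% (34.7 to 37.2) in brain. Ovary thus had the highest 3p share of mir-181a and the lowest of mir-181b among the libraries with at least 50 reads. The difference between the members was not tested. The 5p reads of mir-181b hold 0 reads of its recorded mature form, while those of mir-181a include theirs.

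miR-181b-3p began at either of 2 adjacent bases, so that its reads carried 2 seeds. The main forms are shown with the seed in capitals.
start at the common base: cTCACTGAacgatgaatgcaa
start 1 nt upstream: gCTCACTGaacgatgaatgcaa
Of 560 reads, 276 (49.3%) began at the common base and 252 (45.0%) began 1 nt upstream. In brain 49.2% (43.9 to 54.6) of 333 reads began at the common base and 43.2% (38.0 to 48.6) upstream, and in eye the shares were 52.9% (44.0 to 61.7) and 42.9% (34.3 to 51.8) of 119 reads. The other strands had a single main start. miR-181a-5p began at its common base in 98.9% of 7777 reads, miR-181a-3p in 94.1% of 4306 and miR-181b-5p in 93.2% of 530. Over the libraries with at least 50 reads the share of miR-181a-5p at the common start ran from 97.2% in slow muscle to 100% in liver. For miR-181a-3p it ran from 86.1% in intestine to 95.8% in liver, where intestine had 5.63% of reads starting 2 nt downstream.

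The 3′ ends of the 5p strands varied more than their starts and, among the deposited reads, differently in the 2 members. Ends with bases that do not match an entry, and reads above 25 nt, are not among these reads. The forms of miR-181a-5p with the most reads are shown with the seed in capitals.
23 nt, 2497 reads: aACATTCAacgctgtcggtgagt
21 nt, 1752 reads: aACATTCAacgctgtcggtga
22 nt, 1489 reads: aACATTCAacgctgtcggtgag
Reads of miR-181a-5p of 22 nt or less made up 51.3% (46.5 to 56.1) in ovary, 50.2% (48.6 to 51.8) in brain, 48.0% (45.7 to 50.4) in eye and 48.5% (43.5 to 53.6) in liver, against 36.4% (32.9 to 40.0) in heart, 36.8% (32.7 to 41.0) in intestine and 35.7% (31.0 to 40.6) in slow muscle. Reads of 24 nt or more were most frequent in intestine (34.0%, 30.0 to 38.2) and slow muscle (27.9%, 23.7 to 32.6), against 18.04% to 21.7% in the other libraries with at least 50 reads. The 23 nt form was the most frequent in all 7 of these libraries and made up 44.5% in heart, against 28.7% to 36.2% in the others.

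Among the deposited reads miR-181b-5p hardly occurred below 23 nt. Reads of 22 nt or less made up 1.92% (0.529 to 6.74) of 104 reads in ovary, 5.88% (3.60 to 9.48) of 255 in brain and 6.60% (3.24 to 13.0) of 106 in eye. Its 23 nt form had 273 reads, its 24 nt form 185 and its 21 nt form from the same start 3. The 22 nt form from the same start, which the match types give as the recorded mature miR-181b, had 0 reads in all 8 libraries, where the matching 22 nt form of miR-181a-5p had 1489. The counts of miR-181b-5p are counts of forms other than its reference sequence.

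**Figure D5:**
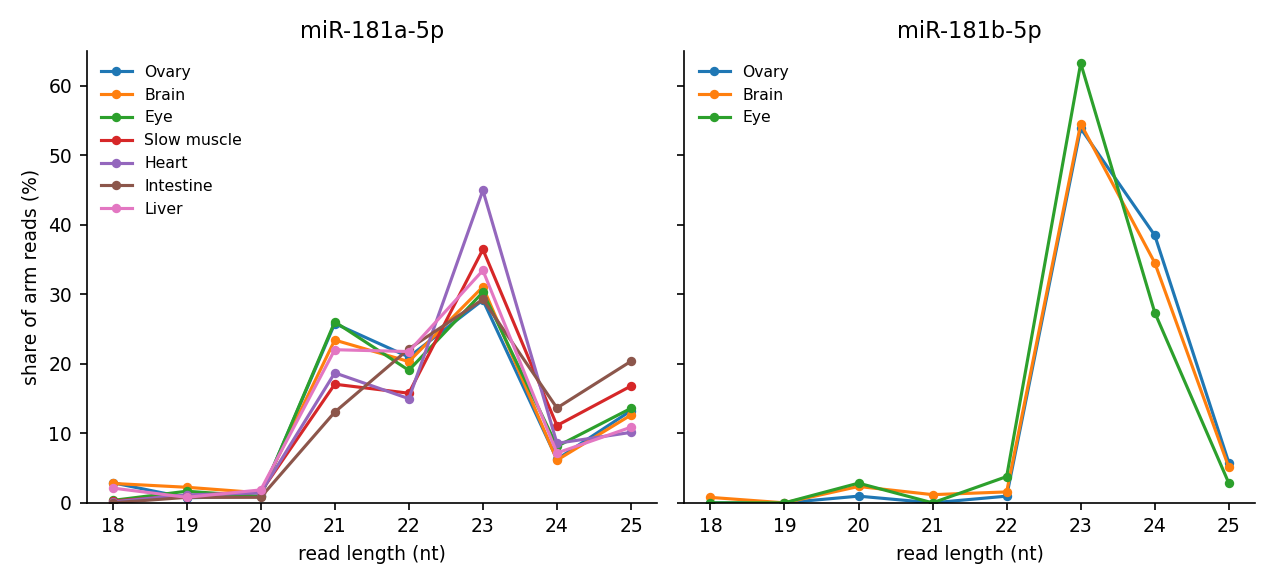
Share of reads by length for miR-181a-5p in 7 libraries (left) and miR-181b-5p in the 3 libraries with at least 50 reads (right). For miR-181a-5p the 23 nt point is the highest in every library and heart is the highest library at 23 nt, while miR-181b-5p has few reads below 23 nt.

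The names whose pattern over the 8 libraries was most like that of miR-181a-5p were found by Pearson's r of log2(RPM + 1), over 211 names outside the family with at least 100 RPM in a library. They were miR-100a-5p (r = 0.93), miR-125-5p (0.93), miR-125b-5p (0.92), miR-125c-5p (0.91) and miR-190-5p (0.91), where the median over all names was 0.61. miR-100a-5p, for example, had 104 RPM in brain, 40.4 in eye, 47.6 in heart, 27.4 in liver, 25.5 in slow muscle, 9.66 in intestine, 7.35 in ovary and 1.89 in testis. These correlations are descriptions over 8 libraries that share depth and composition, and the median over all names is their background. miR-100a-5p reached the minimum of 100 RPM in brain only, while the other names of this top 5 also reached it outside brain and eye. Of the 211 names, 76 were highest in brain or eye, and the minimum can favour names of these tissues. With the annotated reads as library size, or with ranks, 0 of the 5 names stayed among the top 5. For miR-181b-5p, itself below 100 RPM in every library, they were miR-135b-5p (r = 0.88), miR-132-3p (0.86), miR-135a-5p (0.83), miR-218a-5p (0.83) and miR-125c-5p (0.82), with a median of 0.41 over all names. Of these 5 names, 1 stayed with a pseudocount of 10, 2 with ranks, 1 with the annotated reads as library size and 3 with a minimum of 10 RPM. Within the family, r was 0.93 between miR-181a-5p and miR-181a-3p and 0.87 between miR-181a-5p and miR-181b-5p.

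Lists of miRNAs known from neurons and glia, from the retina and from leukocytes were set beside the family. Of the names with at least 100 RPM, 23 belonged to the neural list, and their median r was 0.75. Of these, 16 reached 100 RPM in brain or eye only, so that the minimum itself favours names of these tissues, and the median supports no comparison with other lists. Among them miR-124-3p (r = 0.88), miR-338-3p (0.87), miR-129 precursor-only reads (0.86) and miR-124b-3p (0.91) had the most reads. The 10 names of the retina list, miRNAs of photoreceptors and pigment epithelium, had a median r of 0.75, and 9 of them passed the minimum in brain or eye only. Of the 10, 9 were highest in eye and 1, miR-204b-5p, in brain (2399 RPM, against 1373 RPM in eye, r = 0.66). miR-204a-5p (r = 0.78) had 152 RPM in brain and 32498 RPM in eye, a larger gap than any member of the miR-181 family. The 4 names of the leukocyte list had a median r of 0.52, and 0 of them passed the minimum in brain or eye only. miR-223-3p, a miRNA of myeloid cells, had 4513 RPM in heart, 1444 in eye and 1212 in brain (r = 0.49), and miR-146a-5p was highest in intestine at 1835 RPM (r = 0.54). No p is given for these lists.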

How the data were processed

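The authors extracted RNA from each tissue of adult torafugu, isolated small RNA and sequenced 1 library per tissue on SOLiD 3. They trimmed adaptors, kept 18–25 nt sequences and annotated them against miRBase in CLC genomics workbench. Each deposited file lists, for every annotated sequence, the count of its reads, which the authors did not normalise, and every listed sequence has 0 mismatches to its entry. Reads annotated under later criteria, and fast muscle, were not analysed here. Any genome build used by the authors is not given in the sources used here.

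Reads were summed by name and recorded strand. Sequences that match only a precursor were kept apart, and placed on a strand only where the text says so (overlap of at least 14 nt, at most 2 mismatches, shift of at most 4 nt). RPM used the 18–25 nt totals of the study's read table. Shares carry 95% Wilson intervals, and 3 reads were the smallest detectable value. Without replicates, pairs of libraries were compared by exact binomial tests over all names (called at adjusted p under 0.05 and a ratio of at least 1.5), strand shares by Fisher's exact test, and gonads by an exact permutation test. The binomial and Fisher's tests measure counting error between libraries. The permutation test takes its spread from the differences between tissues, each of them 1 library. The tests were run on simulated data first. Members and miRNA lists (neural, leukocyte, retina and the tissue markers) were chosen with earlier results of these data known. Named were all members, the 5 names most like miR-181a-5p and miR-181b-5p, up to 4 names a list and up to 3 sequences a strand. The 4 versions of miR-181a-3p were singled out after their values were seen. Alternatives changed the library size (annotated reads, edgeR TMM factors, or all trimmed reads), the match types, the thresholds and the libraries. Python 3.11.15, numpy 2.4.6, scipy 1.17.1, pandas 2.3.3, matplotlib 3.10.9, R 4.3.3 and edgeR 4.0.16 were used.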

Additional observations from a re-analysis of the deposited data

Results flagged for a closer look

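Liver lay apart from the other 5 somatic libraries in 2 of 17 measures of the family, by the gap between the outermost library and its neighbour relative to the range of the 6. About 5% of groups are expected to do so by chance for a measure chosen beforehand. The versions of miR-181a-3p were singled out after their values were seen, so this rate does not apply to them. The gap was 0.634 of the range for the T16C share and 0.705 for precursor-only reads, against a limit of 0.625. The T16C version of miR-181a-3p made up 47.4% of the reads on that strand in liver, where the next somatic library, heart, had 20.2%. Precursor-only reads made up 18.1% of the family reads in liver, against 7.34% to 10.5% in the other somatic libraries. Both share the 22 nt T16C reads, which were deposited as precursor matches (72 reads in liver, 34 in brain), so they are not separate observations. Ovary, outside that group, had 17.9% precursor-only reads.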

How the results depend on the processing

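No paired analysis was possible because each tissue has 1 library and the labels give no replicate numbers. Of 121 alternative values of the main results, 99 were counted as unchanged. They kept direction and side of the threshold, stayed within the counting interval or, for numbers of calls or names, stayed within 1.5-fold. A number of calls could thus change and still be counted as unchanged. Leaving out sequences assigned to several miRNAs removed 0 family reads, so that setting could hardly change a value. With 1 gonad left out the exact permutation test could not fall below 0.05, so those runs could change only by reversing. The family ratio of brain over eye was 1.10 per annotated read, 1.06 with TMM factors, 1.60 per trimmed read and 1.23 with identical reads only, against 1.16. Over the 4 pairs 10 names were called, against 6 with identical reads only (1 of them, lower in slow muscle than in heart, not among the 10) and 0 with a minimum of 1000 RPM, which no strand outside brain and eye reached (0 for ovary against testis, 0 for slow muscle against heart, 0 for intestine against liver). Ovary against testis gave 3 calls per annotated read, 3 with mature matches only and 2 with identical reads only, against 5, where these match types left 3 and 2 names to test. Intestine against liver gave 2 of 5 with TMM factors and 2 of 2 with identical reads only, against 4 of 5. Slow muscle against heart gave 2 with identical reads only, against 1, and brain against eye 4 per trimmed read, against 0. For these settings the share of all names called was not counted. The share of mir-181b in brain was 4.54% with mature matches only and 0% with identical reads only, against 9.42%. Of the 5 names most like miR-181a-5p, 0 stayed with Spearman's rank and 0 per annotated read. Leaving out each library in turn, gonads minus somatic tissues ran from -989 to -566 RPM, from -0.176 to -0.0491 points of annotated reads, from 9.08 to 21.6 points of 3p share, and from -4.29 (without ovary, reversed) to 16.2 points of the miR-181b share of 5p reads. The causes were not tested. Depth limits testis (57 family reads) and miR-181b outside brain, eye and ovary.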

Other observations

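The recorded 22 nt sequence of miR-181b-5p was not the only reference without reads. Among 162 strand names with at least the 528 mature reads of miR-181b-5p, 13 had 0 reads identical to a mature entry, miR-126a-3p with 228977 reads being the most abundant. In miR-181a-5p 32.7% of the mature reads were identical to their entry and in miR-181a-3p 85.2%. These names were picked after their values were seen, and the cause was not tested.

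Entries of torafugu took 94.8% of the 13178 family reads, the others being named for entries of other species, and 0 family reads were assigned to several miRNAs.

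39 of the 118 sequences of the family were seen as a single read, while 14 sequences with at least 100 reads held 90.1% of its reads.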
